A study of Mus musculus with 4 samples.

Results

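Levels of 10 genes of the p53 and BCL2 families were examined in single cells of a Znhit1 knockout mouse testis. The genes were chosen by symbol, and all 10 were found, with 1 row each, among the 32285 genes listed. They were Trp53 and Trp63 (p53 family transcription factors), Cdkn1a (a p53 target that arrests the cell cycle), Pmaip1, Bbc3 and Bcl2l11 (death-promoting BH3-only proteins), Bax and Bak1 (pore-forming effectors), and Bcl2 and Mcl1 (guards against death). All 10 are annotated as protein coding.

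The study used droplet 3' single-cell RNA sequencing of testis to ask what loss of ZNHIT1 does to germ cells. ZNHIT1 belongs to the SRCAP chromatin remodeller, which exchanges histone H2A for its variant H2A.Z. The labels give 4 groups of 1 library each, the genotypes Znhit1_KO and CTRL at P16, and Znhit1_KO and CTRL at P35 (postnatal days 16 and 35). The labels do not say how the gene was deleted, in which strain, or how many animals made up a library. By the description of the series, germ cells were the cells the gene was to be removed from. Somatic-like cells are therefore not taken as cells without ZNHIT1. The Znhit1_KO P16 library listed 13789 cell barcodes and the CTRL P16 library 14381. The Znhit1_KO P35 library listed 15306 and the CTRL P35 library 13734. Any pair of libraries shared between 45 and 81 barcode sequences. Counts were analysed for the Znhit1_KO P35 library, so values describe 1 knockout testis library, with no test and no contrast of genotype or age. Every 95% interval below covers counting error only, not the spread between animals.

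The p53 protein is a transcription factor that stress such as DNA breakage stabilises, and its targets stop the cell cycle or start cell death. In the mitochondrial death pathway, BH3-only proteins bind the guard proteins, and the effectors BAX and BAK then open pores in the mitochondrial outer membrane. In testis this pathway removes surplus spermatogonia and spermatocytes that do not complete meiosis, and BAX is needed for the early wave of germ cell loss in young mice.

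Promoters of 3 of the genes are shown, chosen because a window of theirs held a p53 half-site. The p53 protein is known to bind matching DNA, and Bax and Cdkn1a are textbook p53 targets. RefSeq windows (GRCm38.p6, 250 bases before to 50 after a start) were found for 8 of the 10 genes, 12 windows in all. Trp63 and Pmaip1 had none. The p53 half-site was searched on both strands. It occurred in 3 of the 12 windows, and in 8.36% of the 32851 windows of the table. No window of Bbc3, Bak1, Bcl2, Bcl2l11 or Mcl1 held it, nor did the downstream Cdkn1a window at chr17:29093519-29093818. The 250 bases before the start are printed 5′ to 3′ on the strand of the gene, with the half-site letters in capitals. The shown bases lie at chr11:69580109-69580358 (plus strand) for Trp53, chr17:29090729-29090978 (plus strand) for Cdkn1a and chr7:45466899-45467148 (minus strand) for Bax.
Trp53: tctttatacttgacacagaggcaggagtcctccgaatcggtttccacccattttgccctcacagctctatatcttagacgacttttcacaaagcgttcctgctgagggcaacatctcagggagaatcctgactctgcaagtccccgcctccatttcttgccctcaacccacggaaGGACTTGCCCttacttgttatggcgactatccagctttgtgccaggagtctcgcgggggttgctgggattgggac
Cdkn1a: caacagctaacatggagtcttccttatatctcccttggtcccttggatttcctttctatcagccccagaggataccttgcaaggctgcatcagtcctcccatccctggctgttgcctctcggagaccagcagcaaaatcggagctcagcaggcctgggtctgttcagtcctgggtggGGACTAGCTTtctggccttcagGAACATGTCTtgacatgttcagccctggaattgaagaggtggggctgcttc
Bax: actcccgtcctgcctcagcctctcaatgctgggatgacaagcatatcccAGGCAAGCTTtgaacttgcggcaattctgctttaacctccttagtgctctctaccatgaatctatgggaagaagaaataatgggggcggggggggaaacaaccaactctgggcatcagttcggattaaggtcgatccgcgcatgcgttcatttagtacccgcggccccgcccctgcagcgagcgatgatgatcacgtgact
The half-site began 75 bases before the start in Trp53 and 201 bases before it in Bax. In Cdkn1a, half-sites began 73 and 51 bases before the upstream start. The letters AACNGNC, bound by MYB proteins such as the meiotic regulator MYBL1, were searched likewise and occurred in 4 of the 12 windows, against 32.8% of all windows. These are matches of letters in a window, not measured binding.

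The Znhit1_KO P35 library held 72459160 UMIs (unique molecular identifiers, each standing for 1 captured RNA molecule), with 500 to 87246 per barcode. Filters left 7854 cells, which held 48587780 UMIs (median 4607.5 per cell). Clustering without the 10 genes gave 26 clusters, named only as "-like" from marker genes. Germ-cell-like cells numbered 4392, of which 1602 were spermatogonium-like (median 6765 UMIs), 2338 like spermatocytes of early meiotic prophase (median 4529) and 452 pachytene-spermatocyte-like (median 13415.5). The 2579 somatic-like cells were split into 190 Sertoli-like, 963 Leydig-like, 657 myoid or pericyte-like, 233 stromal-like, 75 endothelial-like, 446 macrophage-like and 15 lymphocyte-like cells. The remaining 883 cells, in 5 clusters, were left unnamed. The largest of these, 619 cells at a median of 1243 UMIs, had Cst12 of the Sertoli list among its top 10 genes. Its highest marker score was Leydig. Another, of 104 cells, had Sertoli as its highest marker score. Values for Sertoli-like cells may therefore leave out shallow Sertoli cells. Class sizes moved with the filters: keeping 2 more globin-rich cells gave 1052 spermatogonium-like, 1549 early-prophase-like and 1668 unnamed cells, and allowing 20% mitochondrial UMIs gave 898 Sertoli-like cells. Ordered by their germ marker scores, the spermatogonium-like clusters are called S1 to S4, the early-prophase-like ones E1 to E4 and the pachytene-like ones P1 and P2. Gfra1 was among the leading genes of S1, Rec8 of S4, Stra8 of E1, Terb1 of E2, Zfy1 of E3, Mnd1 of E4, Spag17 of P1 and Ldhc of P2. The name of S4 (425 cells) was a near tie, with a score of 1.06 for spermatogonium and 0.969 for early prophase. Asking a lead between germ stages left it unnamed, with 1177 spermatogonium-like cells. Cluster E1 had a marker of the spermatogonium list, Stra8, among its top 10 genes and none of its own list. Those of P2 held Ldhc and Spink2 of the pachytene list and Tsga8 of the round spermatid list. Germ marker genes such as Sycp3 stood in somatic-like classes at 1.32% to 11.8% of their own class's level, which bounds how far free RNA or mixed cells carried germ RNA. The targeted gene, Znhit1, had 80 UMIs (2.49 CPM) in germ-cell-like and 236 UMIs (15.96 CPM) in somatic-like cells. Since 3' UMIs may come from exons left in place by the deletion, they do not check the label.

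Levels are given as CPM, the UMIs of a gene as a share of all UMIs of the cells in a class, on the customary CPM scale. The plot of levels shows each gene over the germ clusters and somatic-like classes.

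**Figure D1:**
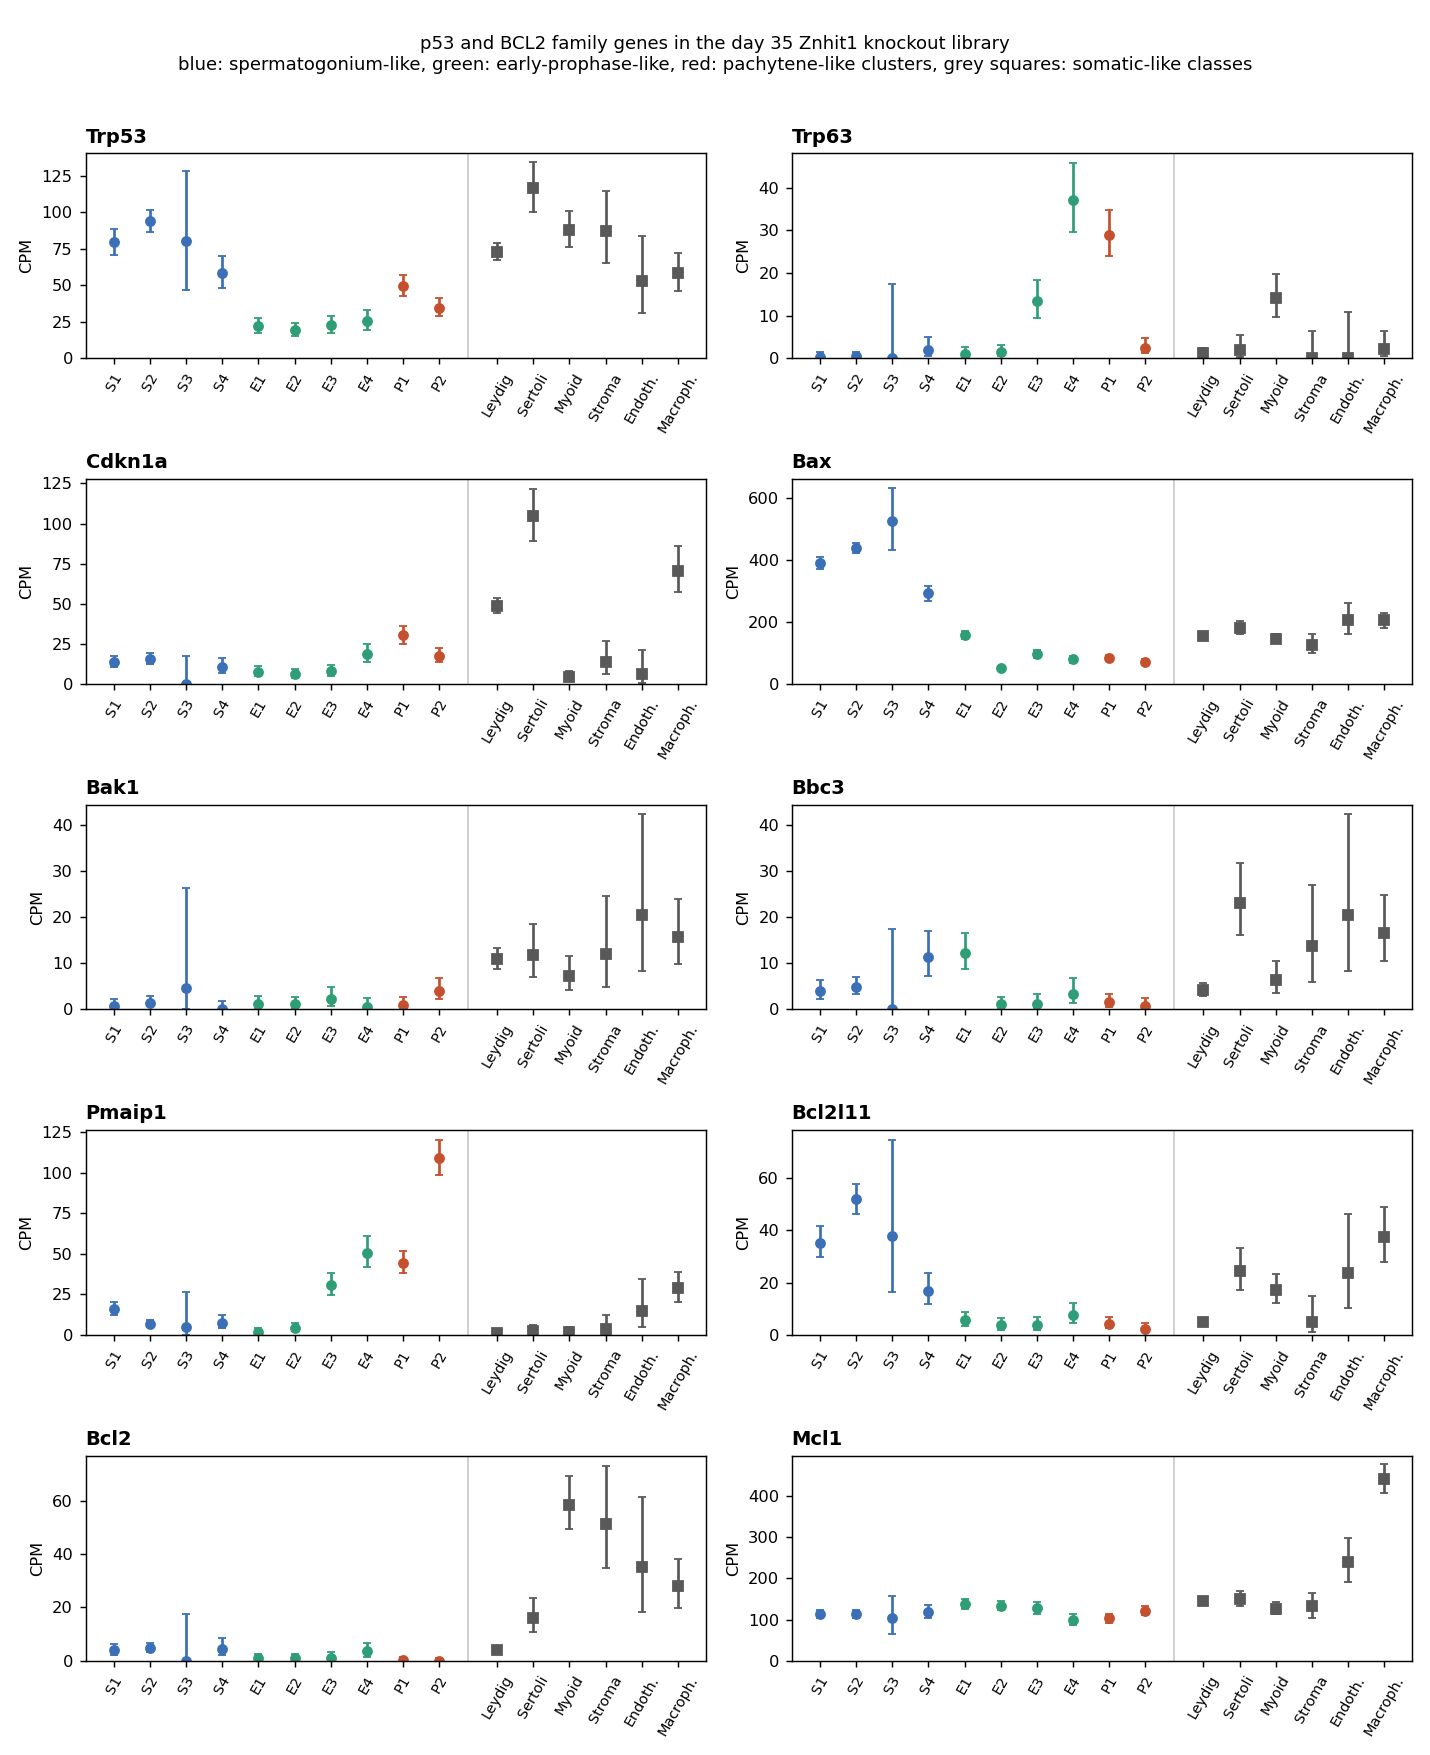
Level (CPM, linear axis from 0) of each gene in the 10 germ clusters (circles, in order of marker score) and in 6 somatic-like classes (grey squares), with exact Poisson 95% intervals. Trp53 and Bax were higher in S1 to S4 than from E1 on, Bcl2l11 was highest in S2 at 51.7 CPM and at 16.8 CPM in S4, Trp63 was high from E3 to P1, and Pmaip1 was highest in P2 at 109 CPM.

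Trp53 (chromosome 11, 69580359 to 69591873, plus strand, mm10) was lower at the entry into meiosis than in spermatogonium-like cells, and partly higher again at pachytene. It held 1027 UMIs in spermatogonium-like cells, a level of 83.0 CPM (95% interval 78.0 to 88.3). Early-prophase-like cells had 266 UMIs, or 21.8 CPM (19.3 to 24.6), and pachytene-like cells 320 UMIs, or 42.2 CPM (37.7 to 47.1). The 3 intervals did not overlap. The early-prophase-like level was 3.80-fold lower than the spermatogonium-like one (3.32 to 4.37). Pachytene-like over early-prophase-like cells gave a ratio of 1.93 (1.64 to 2.28), under the 2-fold size used here as the mark of a change. By cluster, the level was 58.5 to 93.7 CPM in S1 to S4, 19.1 to 25.4 CPM in E1 to E4, 49.6 CPM in P1 and 34.5 CPM in P2. The lowest S cluster was S4, next to E1, and E1 was 2.68-fold lower than S4 (1.99 to 3.62). Among somatic-like classes of 50 or more cells, Sertoli-like cells had the highest level, 116 CPM (100.3 to 134). Endothelial-like cells had the lowest, 52.8 CPM (31.3 to 83.5). Myoid, stromal and spermatogonium-like cells, at 88.0, 87.3 and 83.0 CPM, had overlapping intervals. Early-prophase-like cells were the lowest of the 9 classes of 50 or more cells.

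Trp63 (chromosome 16, 25683763 to 25892102, plus strand), whose long TA form guards genome integrity in mouse oocytes, was a gene of late early-prophase-like and first pachytene-like cells. It held 8 UMIs in spermatogonium-like cells (0.647 CPM, 0.279 to 1.27). Early-prophase-like cells held 130 UMIs (10.7 CPM, 8.92 to 12.7) and pachytene-like cells 122 (16.1 CPM, 13.4 to 19.2). The early-prophase-like level was thus 16.5-fold the spermatogonium-like one (8.13 to 39.0). With 8 UMIs below the line this ratio was loose, from 6.25 with equal weight for each cell to 37.8 with globin-rich cells kept. Cluster values show where this lay. Trp63 was at 0.246 to 1.98 CPM in S1, S2, S4, E1 and E2, at 13.3 CPM in E3, 37.1 CPM in E4, 29.0 CPM in P1 and 2.44 CPM in P2. The shallow S3 held 0 UMIs, which allows up to 14.2 CPM. E3 over E2 gave a ratio of 9.90 (3.87 to 32.3), and P2 was 11.9-fold lower than P1 (6.04 to 26.7). Between classes the pachytene-like over early-prophase-like ratio was 1.51 (1.17 to 1.95), an average over clusters that lay on both sides of it. Set against E4, the last early-prophase-like cluster, pachytene-like cells were 2.30-fold lower (1.73 to 3.06). Outside the germ line, 33 UMIs stood in myoid or pericyte-like cells (14.0 CPM, 9.66 to 19.7), all of them in the cluster of 588 cells led by Acta2. Stromal-like cells held 0 UMIs, which allows a level of up to 5.14 CPM, and endothelial-like cells 0, which allows up to 8.80 CPM. The annotation has 8 Trp63 transcripts, 4 from each of the upstream and downstream starts, and 2 of their 5 distinct 3' ends are shared between them. The 3' UMIs therefore cannot tell the TA and the ΔN forms apart.

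Cdkn1a (chromosome 17, 29090976 to 29100727, plus strand) encodes p21, the inhibitor of cyclin-dependent kinases that p53 switches on in many tissues. Its level was 13.7 CPM in spermatogonium-like cells (11.8 to 15.98), 9.20 CPM in early-prophase-like cells (7.58 to 11.1) and 24.0 CPM in pachytene-like cells (20.7 to 27.8), from 170, 112 and 182 UMIs. Pachytene-like cells were 2.61-fold higher than early-prophase-like cells (2.05 to 3.33). The increase began inside early prophase, since E4 had 18.5 CPM and E3 7.77 CPM, a ratio of 2.38 (1.39 to 4.23). P2 had 17.4 CPM and P1 30.3 CPM. Against E4 alone, pachytene-like cells were at a ratio of 1.30 (0.925 to 1.85), and the 2-fold call was lost. Somatic-like cells, as a whole, held more Cdkn1a than germ-cell-like cells did. Germ-cell-like cells were at 14.4 CPM and somatic-like cells at 47.3 CPM, 3.28-fold lower in the germ line (2.91 to 3.69). Among named classes, Sertoli-like cells were highest at 105 CPM (89.4 to 122), then macrophage-like cells at 70.3 CPM (57.1 to 85.7). Leydig-like cells had 48.7 CPM (44.1 to 53.6). Myoid or pericyte-like cells had the lowest level, 4.25 CPM (2.04 to 7.82). Endothelial-like cells, at 5.87 CPM (0.711 to 21.2), and stromal-like cells, at 13.7 CPM (5.91 to 27.0), did not stand above the germ-cell-like level either. In Leydig-like cells the UMIs were unevenly spread. Of the 963 cells, 105 had any, and 35 cells with 5 or more held 289 of the 413 UMIs. The highest Leydig-like cell had 23.

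The BH3-only genes followed unlike courses. Pmaip1, on chromosome 18, encodes NOXA, which binds and neutralises MCL1. It held 122 UMIs (9.87 CPM, 8.19 to 11.8) in spermatogonium-like cells, 226 (18.6 CPM, 16.2 to 21.1) in early-prophase-like cells and 575 (75.9 CPM, 69.8 to 82.3) in pachytene-like cells. No other class of 50 or more cells reached the pachytene-like level, and pachytene-like cells were 4.09-fold higher than early-prophase-like cells (3.50 to 4.79). As with Trp63, the step lay between E2 and E3. E3 had 31.1 CPM and E2 4.57 CPM, a ratio of 6.80 (4.003 to 12.2). P1 had 44.4 CPM and E4 50.9 CPM, with overlapping intervals. Unlike Trp63, Pmaip1 was higher in P2 than in P1, at 109 and 44.4 CPM, a ratio of 2.45 (2.05 to 2.95). Against E4 alone, the ratio of pachytene-like cells was 1.49 (1.22 to 1.83), short of 2-fold. Spermatogonium-like clusters held a smaller difference, with 6.75 CPM in S2 and 15.995 CPM in S1, 2.37-fold lower in S2 (1.58 to 3.59).

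At least 1 UMI was found in 212 of 452 pachytene-like cells (46.9%) at a median of 13415.5 UMIs a cell, against 10 of 963 Leydig-like cells (1.04%) at a median of 8805. With each cell thinned to 2000 UMIs the shares were 11.6% (8.75 to 14.9, Clopper-Pearson) in pachytene-like and 0.105% (0.00265 to 0.582) in Leydig-like cells. Among pachytene-like cells, 37 with 5 or more UMIs held 287 of the 575, and 36 of these cells were in P2. P2 cells were also deeper, at a median of 20436.5 UMIs against 10817.5 in P1, and a cutoff of 5 depends on depth. Germ-cell-like cells were at 28.7 CPM and somatic-like cells at 4.598 CPM, a ratio of 6.25 (4.88 to 8.12), which was 2.18 with equal weight for each cell. Macrophage-like cells, at 28.7 CPM (20.5 to 39.1), stood out among somatic-like classes, and the other 5 classes of 50 or more cells lay between 1.18 and 14.7 CPM.

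Bbc3 (chromosome 7, 16308393 to 16318205, plus strand) encodes PUMA, the BH3-only protein most directly tied to p53. It was sparse, with 5.58 CPM in spermatogonium-like cells (4.34 to 7.06), 4.68 CPM in early-prophase-like cells (3.55 to 6.07) and 1.19 CPM in pachytene-like cells (0.543 to 2.25), from 69, 57 and 9 UMIs. Pachytene-like cells were 3.94-fold lower than early-prophase-like cells (1.94 to 9.06). The class value of early prophase came mostly from E1. E1 had 12.2 CPM and S4 11.4 CPM, and every later germ cluster had 0.814 to 3.45 CPM. E2 was 11.4-fold lower than E1 (4.12 to 43.7). Without E1, pachytene-like over early-prophase-like cells gave 0.692 and the 2-fold call was lost. Germ-cell-like cells had 4.20 CPM and somatic-like cells 8.45 CPM, 2.01-fold lower in the germ line (1.56 to 2.58), a value at the edge of the 2-fold size. The difference was not shared by all somatic-like classes. Leydig-like cells, at 4.13 CPM (2.87 to 5.74), were at the germ-cell-like level within the intervals. Myoid or pericyte-like cells had 6.38 CPM (3.57 to 10.5). Sertoli-like cells had the highest level, 23.0 CPM (16.2 to 31.7), an interval that overlapped those of endothelial-like (20.5 CPM), macrophage-like (16.5 CPM) and stromal-like cells (13.7 CPM). This Sertoli-like level rested mostly on 1 cluster of 79 cells, which held 29 of the 37 UMIs (38.9 CPM). The Sertoli-like cluster of 63 cells had 7.21 CPM.

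Bcl2l11 (chromosome 2, 128126038 to 128162547, plus strand) encodes BIM, a BH3-only protein known for killing cells deprived of growth factors. It was a spermatogonium-like gene in this library. It held 499 UMIs (40.3 CPM, 36.9 to 44.1) in spermatogonium-like cells, 61 (5.01 CPM, 3.83 to 6.44) in early-prophase-like cells and 26 (3.43 CPM, 2.24 to 5.03) in pachytene-like cells. The early-prophase-like level was 8.05-fold lower than the spermatogonium-like one (6.16 to 10.7). Pachytene-like over early-prophase-like cells gave 0.685 (0.415 to 1.10), and the 2 intervals overlapped. The level was already low at S4, 16.8 CPM, against 51.7 CPM in S2, and E1 was 3.04-fold lower than S4 (1.69 to 5.65). Macrophage-like cells, at 37.3 CPM (27.9 to 48.9), did not differ from spermatogonium-like cells beyond their intervals. Leydig-like cells were among the lowest at 4.83 CPM (3.47 to 6.56).

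Of the effectors, Bax (chromosome 7, 45461697 to 45466898, minus strand) had its highest level in spermatogonium-like cells. These held 4933 UMIs, or 399 CPM (388 to 410.2). Early-prophase-like cells held 1167, or 95.9 CPM (90.4 to 101.5), and pachytene-like cells 583, or 76.9 CPM (70.8 to 83.4). The early-prophase-like level was 4.16-fold lower than the spermatogonium-like one (3.90 to 4.44). Pachytene-like over early-prophase-like cells gave 0.802 (0.725 to 0.887). The order by cluster was not a plain decline. S1, S2 and S3 had 388 to 524 CPM, S4 had 291 CPM, E1 had 157 CPM and E2 had 50.6 CPM, the lowest of all germ clusters, while E3 had 95.8 CPM. E2 was 3.10-fold lower than E1 (2.62 to 3.68), and E3 over E2 gave 1.90 (1.57 to 2.30). All somatic-like classes of 50 or more cells lay between the spermatogonium-like and the early-prophase-like level, from 127 CPM in stromal-like to 205 CPM in endothelial-like cells. After thinning to 2000 UMIs, 52.9% of spermatogonium-like, 17.6% of early-prophase-like and 9.56% of pachytene-like cells had a Bax UMI. Without thinning the shares were 82.7%, 35.3% and 61.5%, at medians of 6765, 4529 and 13415.5 UMIs. The unthinned order of the last 2 stages is opposite to that of the CPM, so only the thinned shares are read.

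Bak1 (chromosome 17, 27019810 to 27029009, minus strand), the other effector, had few UMIs in the germ line. Germ-cell-like cells held 47 UMIs (1.46 CPM, 1.08 to 1.95) and somatic-like cells 166 (11.2 CPM, 9.58 to 13.1), 7.67-fold lower in the germ line (5.52 to 10.8). The germ stages had 1.05, 1.23 and 2.51 CPM from spermatogonium-like to pachytene-like cells, with overlapping intervals. Pachytene-like over early-prophase-like cells gave 2.03 (0.980 to 4.30), past 2-fold by value but with an interval that holds 1. Pachytene-like over spermatogonium-like cells gave 2.38 (1.12 to 5.25). Of the 19 pachytene-like UMIs, 15 were in P2, and P1 alone over early-prophase-like cells turned the direction, to 0.834. The somatic-like classes of 50 or more cells ran from 7.23 CPM in myoid or pericyte-like to 20.5 CPM in endothelial-like cells, and these intervals overlapped too.

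Of the guards, Bcl2 (chromosome 1, 106538178 to 106714274, minus strand) was low throughout the germ line. It held 53 UMIs (4.29 CPM, 3.21 to 5.61) in spermatogonium-like cells, 17 (1.40 CPM, 0.813 to 2.24) in early-prophase-like cells and 1 (0.132 CPM, 0.00334 to 0.735) in pachytene-like cells. Early-prophase-like cells were 3.07-fold lower than spermatogonium-like cells (1.75 to 5.65). Pachytene-like over early-prophase-like cells rested on 18 UMIs in all, under the minimum of 20 used for a call, and its ratio was 0.0945 (0.00226 to 0.603). Germ-cell-like cells had 2.21 CPM and somatic-like cells 19.5 CPM, 8.84-fold lower in the germ line (6.80 to 11.6). Myoid or pericyte-like (58.7 CPM, 49.3 to 69.3) and stromal-like cells (51.4 CPM, 34.6 to 73.3) were highest and did not differ beyond their intervals. Endothelial-like cells had 35.2 CPM, macrophage-like cells 28.0 CPM and Sertoli-like cells 16.2 CPM. Leydig-like cells, at 3.89 CPM (2.68 to 5.46), were at the spermatogonium-like level within the intervals. The 15 lymphocyte-like cells held 11 Bcl2 UMIs, 359.6 CPM (179 to 643).

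Mcl1 (chromosome 3, 95658788 to 95663176, plus strand), a guard with a short-lived protein, stayed within 2-fold over the germ stages. It was at 114 CPM in spermatogonium-like cells (108 to 120.0), 127 CPM in early-prophase-like cells (120.3 to 133) and 111 CPM in pachytene-like cells (104 to 119), from 1408, 1541 and 844 UMIs. All 10 germ clusters lay between 99.1 CPM (E4) and 137 CPM (E1). Macrophage-like cells had the highest level, 441 CPM (407 to 478), and 3.07 times that of the other somatic-like cells together (2.80 to 3.37). Thinned to 2000 UMIs, 18.7% to 21.9% of the cells of a germ stage had a Mcl1 UMI, against 59.4% of macrophage-like cells. Without thinning, the macrophage-like share was 69.3% at a median of 3050.5 UMIs. No class in this testis is known to lack Mcl1, so no background share can be set beside it.

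Within somatic-like classes, clusters differed as well. Of the Sertoli-like clusters, the one of 79 cells led by Wfdc18 had 140 CPM of Cdkn1a, 38.9 CPM of Bbc3 and 34.9 CPM of Bcl2. The one of 63 cells that included Fshr and Sox9 among its leading genes had 79.3 CPM of Cdkn1a, 7.21 CPM of Bbc3 and 0 Bcl2 UMIs, which allows up to 4.33 CPM. The cluster of 48 cells had 53.5 CPM of Cdkn1a, 17.8 CPM of Bbc3 and 0 Bcl2 UMIs, which allows up to 17.8 CPM. The cluster led by Wfdc18 held 104 of the 168 Cdkn1a, 29 of the 37 Bbc3 and all 26 Bcl2 UMIs of Sertoli-like cells. None of the Sertoli markers used for naming was among its top 10 genes. The unnamed cluster of 619 cells with Cst12 had 28.5 CPM of Cdkn1a, 10.6 CPM of Bbc3 and 4.22 CPM of Bcl2. The unnamed cluster of 104 cells scored highest for Sertoli had 22.8, 5.06 and 10.1 CPM of these genes. Of the macrophage-like clusters, that of 128 cells led by Cd74, with Il1b and Cxcl2, had 101.1 CPM of Pmaip1, 125 CPM of Cdkn1a, 80.8 CPM of Bcl2 and 594 CPM of Mcl1. The one of 318 cells led by F13a1 had 13.1 CPM of Pmaip1, 58.4 CPM of Cdkn1a, 16.6 CPM of Bcl2 and 408 CPM of Mcl1. A list of 16 dissociation stress genes summed to 12296 CPM in the cluster of 128 cells and to 8719 CPM in that of 318, and its part in these levels was not tested.

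Counts of the 10 genes past 2-fold were set beside those of all genes. Pachytene-like over early-prophase-like cells had 9 genes with 20 or more UMIs over both classes. Of these 3 rose (Cdkn1a, Pmaip1 and Bak1) and 1 fell (Bbc3), where 18.1% of 14834 genes rose and 28.6% fell (46.7% either way). Their median log2 ratio was 0.59, and that of all genes -0.33. Early-prophase-like over spermatogonium-like cells had all 10 genes measured, of which 1 rose (Trp63) and 4 fell (Trp53, Bax, Bcl2 and Bcl2l11). Of 15964 genes, 14.1% rose and 28.9% fell (43.0% either way), and the median log2 ratios were -0.42 for the 10 genes and -0.24 for all. Germ-cell-like over somatic-like cells had 2 of 10 that rose (Trp63, which lost the call at 1.39 with equal weight for each cell, and Pmaip1) and 4 that fell (Cdkn1a, Bbc3, Bak1 and Bcl2), where 39.7% of 18395 genes rose and 25.5% fell (65.1% either way). The median log2 ratio there was -0.60 for the 10 genes and 0.52 for all genes. For 10 genes these shares come to a few genes in each direction, so the counts are given as a description. Against E4 alone, 8 genes could be measured, of which 1 rose (Bak1, 19 UMIs against 1) and 2 fell (Trp63 and Bcl2l11). The shares over 12450 genes there were 19.7% up and 11.3% down. Without E1, the cluster with the spermatogonium-list marker, pachytene-like over early-prophase-like cells had 2 genes that rose and 0 that fell of 9, where 17.4% of 14246 genes rose and 25.6% fell. Early-prophase-like over spermatogonium-like cells then had 2 that rose, with Pmaip1 at 2.54, and 5 that fell, with Bbc3 at 0.308, where 15.2% of 15676 genes rose and 31.0% fell.

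**Figure D2:**
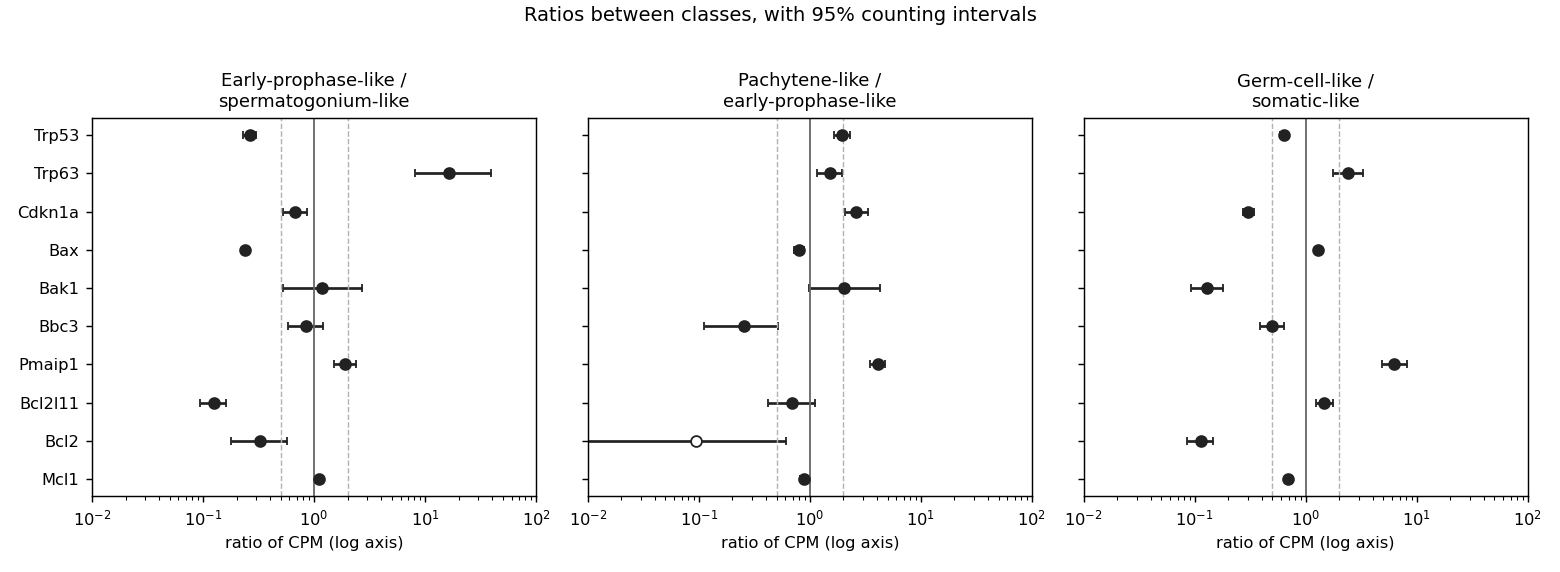
Ratio of CPM (log axis) for the 10 genes between consecutive germ stages and between germ-cell-like and somatic-like cells, with exact 95% counting intervals. The dashed lines mark 2-fold in each direction, and the open circle is Bcl2, with 18 UMIs in both classes. Bax, Trp53 and Bcl2l11 stood below the lower line on entry into early prophase and Pmaip1 above the upper line at pachytene.

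Summed UMIs of the effectors (Bax and Bak1) over the guards (Bcl2 and Mcl1) gave a ratio that is read only between classes, since capture differs between genes. The guard Bcl2l1 and the BH3-only gene Bad, described below, were not among the genes chosen. They take no part in this ratio or in the BH3-only ratio that follows, so neither is a full balance of the family. Spermatogonium-like cells had a ratio of 3.39 (3.19 to 3.59), early-prophase-like cells one of 0.759 (0.703 to 0.819) and pachytene-like cells one of 0.712 (0.641 to 0.792). The early-prophase-like and pachytene-like intervals overlapped. Among the germ clusters it was highest in S3 at 5.09 (3.20 to 8.45) and lowest in E2 at 0.385 (0.324 to 0.455), and 0.761 in E3. Most of these UMIs were Bax and Mcl1, and Mcl1 stayed within 2-fold, so between germ stages the ratio mostly follows Bax. Germ-cell-like cells were at 1.74 and somatic-like cells at 0.895. Leydig-like and Sertoli-like cells, at 1.11 and 1.16, had overlapping intervals, and macrophage-like cells were lowest of the somatic-like classes at 0.469 (0.409 to 0.538).

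The BH3-only genes over the guards gave another order. Spermatogonium-like cells stood at 0.472 (0.431 to 0.517), early-prophase-like cells at 0.221 (0.196 to 0.248) and pachytene-like cells at 0.722 (0.649 to 0.802). It was lowest of the germ clusters in E2 at 0.0701 (0.0483 to 0.0989), 0.605 in E4, 0.490 in P1 and highest in P2 at 0.9303 (0.812 to 1.07). The genes behind it differed by stage. Bcl2l11 gave 499 of the 690 BH3-only UMIs in spermatogonium-like cells, and Pmaip1 gave 575 of the 610 in pachytene-like cells. Leydig-like cells had the lowest value of the somatic-like classes, 0.0686 (0.0545 to 0.0854).

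**Figure D3:**
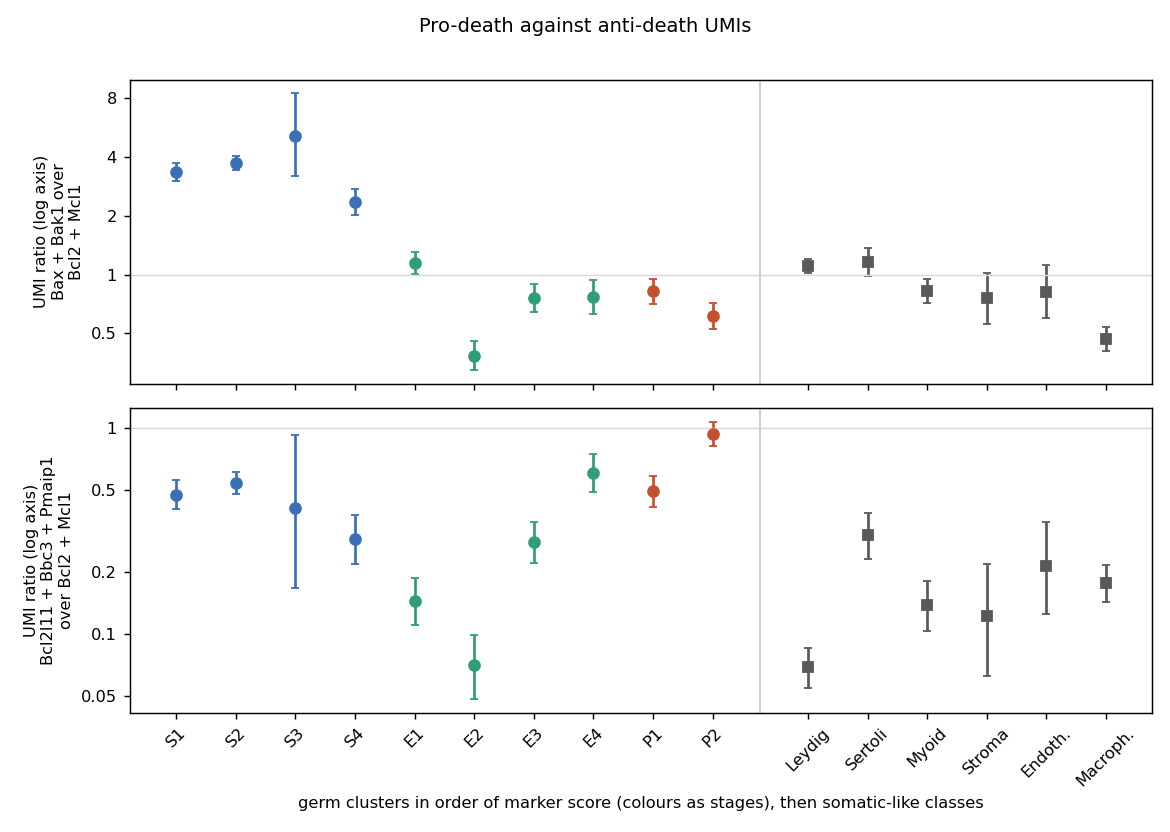
Ratio of summed UMIs (log axes) of effector genes over guard genes (top) and BH3-only genes over guard genes (bottom) in the germ clusters and in somatic-like classes, with exact binomial 95% intervals. The effector ratio was above 2 in S1 to S4 and below 1 from E2 on, and the BH3-only ratio was lowest in E2 and highest in P2.

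Shares of cells with a UMI were also set at equal depth. No class here is known to lack Trp53, Bcl2l11, Bax or Mcl1, so these shares have no background class. Thinned to 2000 UMIs, Trp53 was seen in 14.2% of spermatogonium-like, 3.89% of early-prophase-like and 6.44% of pachytene-like cells. Bcl2l11 was seen in 7.70%, 1.18% and 0.667% of the same 3 classes, and Trp63 in 0.0681%, 1.49% and 2.67%. The numbers of cells deep enough were 1468 of 1602, 2288 of 2338 and 450 of 452. Bcl2 was seen in 0.131% of early-prophase-like cells, against 10.9% of myoid or pericyte-like cells.

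**Figure D4:**
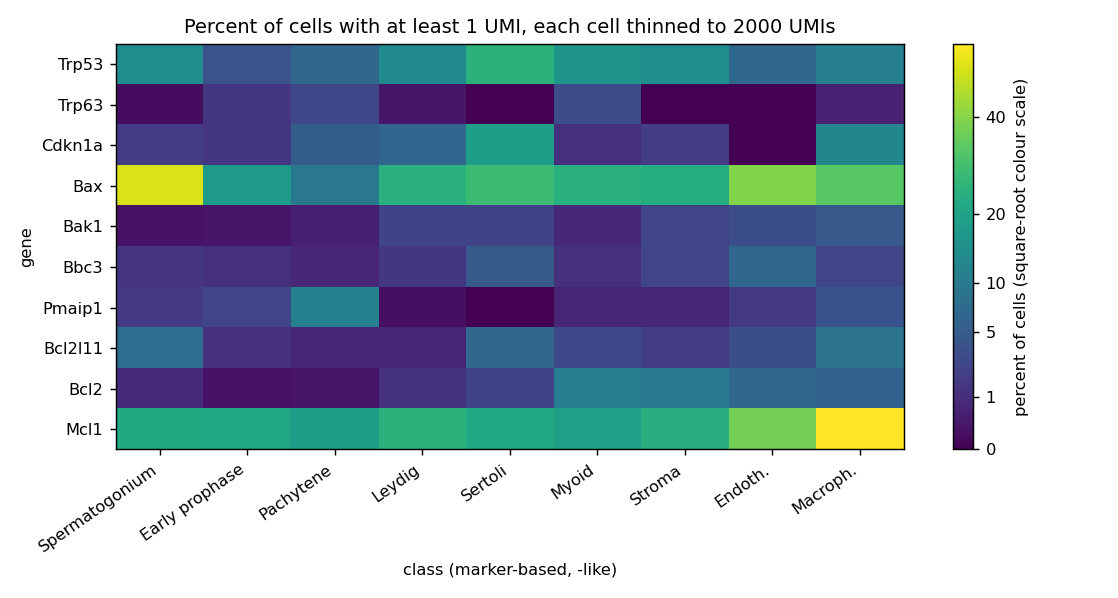
Percent of cells with at least 1 UMI of each gene after every cell was thinned to 2000 UMIs, in the 9 classes of 50 or more cells (square-root colour scale). The highest shares among them were Mcl1 in macrophage-like cells (59.4%) and Bax in spermatogonium-like cells (52.9%).

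Other genes of the pathway were taken from 4 lists of 78 genes in all, with Mdm2 and Apaf1 in 2 lists each. Of the 67 with 20 or more UMIs in pachytene-like and early-prophase-like cells, 6 rose and 25 fell, and the median log2 ratio was -0.51. Over all genes 18.1% rose, 28.6% fell and the median was -0.33. Set against E4 alone, 5 fell, where 11.3% of all genes fell. Without E1, 19 fell, where 25.6% of all genes fell. Of the 71 measured in early-prophase-like and spermatogonium-like cells, 8 rose and 23 fell, where 14.1% of all genes rose and 28.9% fell. Of the 76 measured in germ-cell-like and somatic-like cells, 26 rose and 19 fell, where 39.7% of all genes rose and 25.5% fell, with a median of -0.12 where that of all genes was 0.52.

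Of 15 measured p53 regulators, 0 rose and 5 fell in pachytene-like over early-prophase-like cells, and of 16 measured 12 rose and 0 fell in germ-cell-like over somatic-like cells. The shares over all genes were 18.1% up and 28.6% down in the first comparison, and 39.7% up and 25.5% down in the second. Atm, a kinase that signals DNA breaks, was at 9.63 CPM in pachytene-like and 115 CPM in early-prophase-like cells, 11.9-fold lower (9.40 to 15.3). Cdkn2a, whose ARF product restrains MDM2, was at 14.0 CPM in pachytene-like and 95.7 CPM in early-prophase-like cells, 6.84-fold lower (5.60 to 8.43), and at 298 CPM in spermatogonium-like cells. Atr, the kinase that acts on unpaired chromosomes in meiosis, had the highest level of the list, with 159 CPM at the spermatogonium-like, 732 CPM at the early-prophase-like and 479 CPM at the pachytene-like stage. Trp73, the remaining family member, had 32 UMIs in germ-cell-like cells (0.996 CPM) and 1 in somatic-like cells (0.0676 CPM).

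The p53 targets moved both ways. Of 27 measured in pachytene-like over early-prophase-like cells, 3 rose and 7 fell, with a median log2 ratio of -0.19, beside 18.1%, 28.6% and -0.33 over all genes. Ccng1, a p53-induced cyclin, was at 26.0 CPM in pachytene-like and 8.46 CPM in early-prophase-like cells, a ratio of 3.07 (2.41 to 3.94). Perp, a membrane protein of p53-dependent death, was at 3.03 and 0.657 CPM in pachytene-like and early-prophase-like cells, from 23 and 8 UMIs. Ddb2, which recognises ultraviolet damage, was at 11.7 CPM in pachytene-like and 200 CPM in early-prophase-like cells, 17.0-fold lower (13.8 to 21.3). Rrm2b, which supplies nucleotides for repair, was 5.13-fold lower (3.97 to 6.73). In germ-cell-like over somatic-like cells 7 of 30 rose and 8 fell, beside 39.7% and 25.5% of all genes. Gtse1, which binds p53 in G2, was at 21.8 CPM in germ-cell-like, against 3.79 CPM in somatic-like cells. Btg2, an antiproliferative gene that dissociation also induces, was at 34.8 CPM in germ-cell-like, against 759 CPM in somatic-like cells. Pltp, a phospholipid transfer protein, was at 3.92 CPM in germ-cell-like, against 81.0 CPM in somatic-like cells.

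Of the other BCL2 family genes, 7 were measured between pachytene-like and early-prophase-like cells, of which 1 rose and 4 fell, beside 18.1% and 28.6% of all genes. The riser was Bad, a BH3-only gene, with 93.0 CPM in pachytene-like and 36.2 CPM in early-prophase-like cells, a ratio of 2.57 (2.28 to 2.90). Bcl2l2, which encodes the guard BCL-W that adult spermatogenesis needs, was at 2.38 CPM in pachytene-like and 7.39 CPM in early-prophase-like cells, 3.11-fold lower (1.86 to 5.49). Bcl2l13 was at 12.5 and 31.6 CPM in the same classes, 2.52-fold lower (2.01 to 3.19). In germ-cell-like over somatic-like cells 2 of 12 rose and 7 fell, beside 39.7% and 25.5% of all genes. Bcl2l1, which encodes the guard BCL-XL, was at 56.0 CPM in germ-cell-like, against 26.5 CPM in somatic-like cells, or 2.11-fold (1.89 to 2.36). Within the germ line it was at 38.7 CPM at the spermatogonium-like, 61.9 CPM at the early-prophase-like and 74.6 CPM at the pachytene-like stage. Bid, a BH3-only gene cut by caspase 8, was at 15.4 CPM in germ-cell-like, against 5.41 CPM in somatic-like cells. Bcl2a1b and Bcl2a1d were lower in germ-cell-like cells, at 0.529 and 0.218 CPM, than in somatic-like cells, at 11.5 and 3.58 CPM, and are uncertain since near-identical copies can share reads.

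The apoptosome, caspase and inhibitor genes had 2 that rose and 10 that fell among 20 at pachytene, beside 18.1% and 28.6% of all genes. The risers were Cyct, the testis form of cytochrome c, with 709.5 CPM in pachytene-like and 76.3 CPM in early-prophase-like cells, a ratio of 9.30 (8.67 to 9.98), and Diablo, an antagonist of caspase inhibitors, with 989 and 387 CPM, a ratio of 2.56 (2.47 to 2.66). Cycs, the somatic cytochrome c, had the highest level of the list over all cells, and was at 144 CPM in pachytene-like and 341 CPM in early-prophase-like cells, 2.36-fold lower (2.21 to 2.53). Xiap, a caspase inhibitor on the X chromosome, was 7.75-fold lower (5.51 to 11.2), at 4.75 CPM in pachytene-like and 36.8 CPM in early-prophase-like cells. In germ-cell-like over somatic-like cells 7 of 20 rose and 4 fell, beside 39.7% and 25.5% of all genes. Among them were Birc5 (146 and 16.7 CPM), Birc3 (3.05 and 38.6 CPM) and Casp8 (4.89 and 26.9 CPM).

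**Figure D5:**
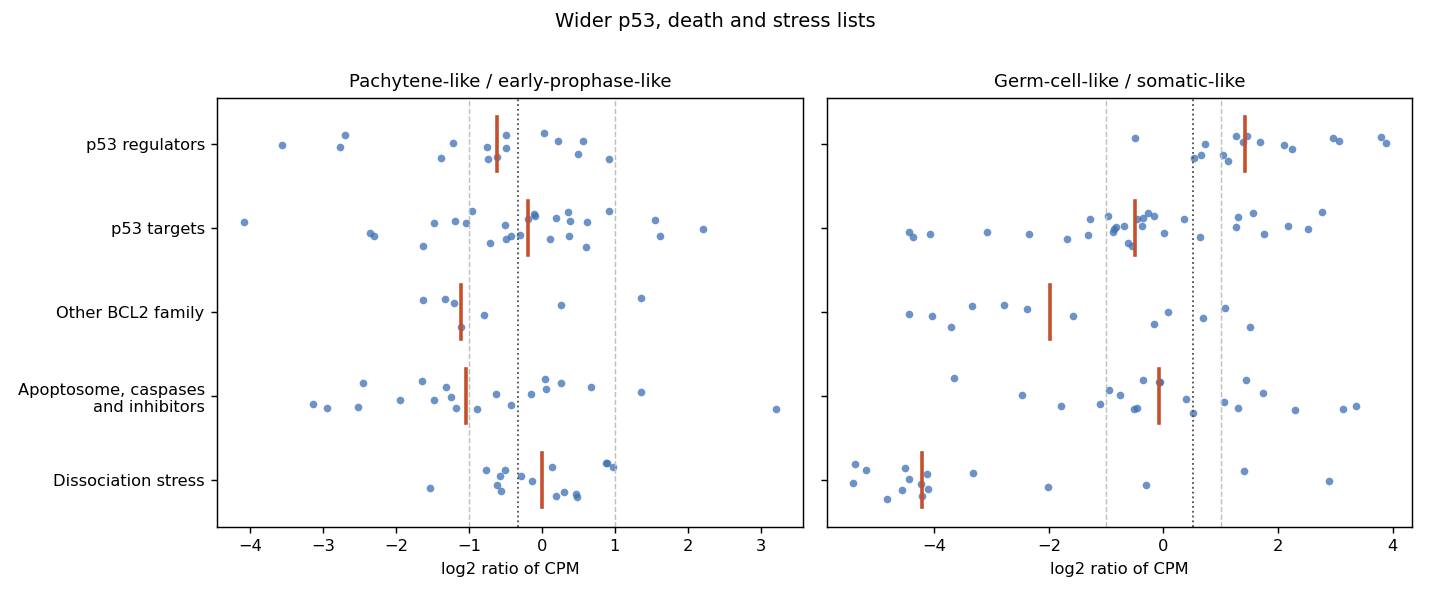
Log2 ratio of CPM for each measured gene of 5 lists (blue points), with the list median (red bar), the median of all genes (dotted line) and 2-fold (dashed lines). At pachytene the apoptosome list had a median of -1.04 and the stress list 0.00, and in germ-cell-like over somatic-like cells the stress list lay at -4.22.

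The summed list of dissociation stress genes differed between classes. By cluster the summed stress list was at 2744 CPM in E1, 4194 CPM in E2, 5882 CPM in E3, 7359 CPM in E4, 8323 CPM in P1 and 7781 CPM in P2, an order shared with Pmaip1 up to E4, and its part in the Pmaip1, Trp63 and Cdkn1a levels was not tested. By class it was at 2817 CPM at the spermatogonium-like, 4763 CPM at the early-prophase-like and 8060 CPM at the pachytene-like stage, and at 6736 CPM in all somatic-like cells. In pachytene-like over early-prophase-like cells 0 of 16 of its genes rose and 1 fell (Hspa1b, 1.19 and 3.45 CPM), beside 18.1% and 28.6% of all genes. The gene Hsp90aa1, a chaperone that germ cells make in large amounts, gave most of the sum in both stages, at 7126 CPM in pachytene-like and 3856 CPM in early-prophase-like cells. Between these stages the sum therefore mostly follows Hsp90aa1. The median log2 ratio of the list was 0.004 there, beside -0.33 over all genes. In germ-cell-like over somatic-like cells 2 of 16 rose (Hsp90aa1 and Dnajb1) and 13 fell, beside 39.7% and 25.5% of all genes. Of this list, Fosb stood at 8.75 and 366 CPM and Atf3 at 1.28 and 54.2 CPM. Cdkn1a, Bbc3, Bak1 and Bcl2 fell in the same comparison, and the part of dissociation in that was not tested.

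Mitochondrial RNA also differed between classes, at 6.53% of UMIs at the spermatogonium-like, 6.18% at the early-prophase-like and 3.08% at the pachytene-like stage. Barcodes over 10% mitochondrial UMIs, 4152 in number, were left out as possible dying cells. They held Bcl2l11 at 31.5 CPM, Cdkn1a at 37.0 CPM and Pmaip1 at 4.42 CPM, where the cells used had 16.7, 24.8 and 20.95 CPM. Barcodes over 20% were not clustered, so these pooled levels cannot be set against a class. With 20% allowed, the cells of 10% to 20% included 994 somatic-like, 232 spermatogonium-like, 184 early-prophase-like and 15 pachytene-like cells. Their medians were 9287, 7181, 3303.5 and 2017 UMIs, in that order. Cells of the same classes at 5% to 10% had medians of 5631, 6956, 4355 and 8041 UMIs. The filter thus also left out cells of high depth. Bcl2l11, Cdkn1a and Pmaip1 were at 29.4, 56.0 and 1.76 CPM in the somatic-like cells of 10% to 20%. In the spermatogonium-like cells of 10% to 20% they were at 51.8, 7.48 and 6.91 CPM. In the clustering that allowed 20%, early-prophase-like cells of up to 5% had 36.1 CPM of Pmaip1 and 25.1 CPM of Trp63, while those of 5% to 10% had 12.7 and 6.93 CPM. Pachytene-like cells of up to 5% had 78.2 CPM of Pmaip1 and 13.46 CPM of Trp63, while those of 5% to 10% had 44.2 and 31.1 CPM, so Trp63 ran the other way there. The part of RNA quality and of stage in these differences cannot be told apart.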

How the data were processed

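The deposited values are UMI counts per gene and cell barcode from droplet 3' single-cell RNA sequencing. Per the file headers they were made with Cell Ranger 7.1.0, and the submitters' processing notes name STAR and the mouse build mm10. How cell barcodes were called was not given in the sources used here. Counts were used as deposited, and free RNA was not subtracted. Each of the 4 groups is 1 library. Counts of 3 libraries, all but Znhit1_KO at P35, were not analysed here.

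Barcodes with at least 500 genes and 1000 UMIs and at most 10% mitochondrial UMIs were kept, and 4 cells over 5% globin UMIs were dropped, a filter added after seeing the data. Scrublet marked 263 of 8117 cells (3.24%) as doublets, which were removed. Counts were log-normalised, and cells were clustered with scanpy 1.11.5 and leidenalg 0.10.2 (3000 variable genes, 30 principal components, 15 neighbours, resolution 1). Clustering ignored 1923 genes, namely the 10 genes, the wider lists and those on the X, Y and mitochondrial chromosomes. A cluster took the name of its highest marker score (at least 1, with 3 markers at 2-fold and 10 cells). A lead of 0.25 over the next name was asked, except between consecutive germ stages. A shallow cluster, whose median UMIs were below those of all cells by a factor over 3, also needed a marker among its top 10 genes. The naming score was fixed with the clusters in view, and a different naming could move cells between classes.

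Levels are summed UMIs on the CPM scale. Intervals are exact Poisson for levels, conditional binomial for ratios and Clopper-Pearson for shares, all at 95% and for counting error only. A change is at least 2-fold with 20 or more UMIs over both classes. A count of 0 is given the limit of 3 counts. With 1 library there are no p-values. The ratio and interval steps were tested on simulated data. From each wider list the text names the 2 largest changes in each direction, pachytene-like over early-prophase-like and germ-cell-like over somatic-like, and the gene of highest CPM. A gene that this rule names is not reported here. Genes of like pattern are not given, since the widest ranges rested on shallow clusters with 0 UMIs. The genes and lists were chosen with earlier results of these data known. Python 3.11.15, numpy 2.4.6, scipy 1.17.1 and pandas 2.3.3 were used.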

Additional observations from a re-analysis of the deposited data

How the results depend on the processing

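With 1 library, no value here measures the spread between animals, and depth limits Bbc3, Bak1 and Bcl2, which had 19 or fewer UMIs in pachytene-like cells. No paired analysis was possible because the results come from no test and from 1 library. Of 194 recomputed counts and summed ratios, 183 kept to the value given, meaning within 1.5 times for a count and within the 95% counting interval for a ratio, and 11 moved. The spermatogonium-like effector-to-guard ratio was 3.62 when 200 genes and 500 UMIs were asked of a cell and 3.60 when a lead in marker score was asked between germ stages. Genes that fell at pachytene numbered 2 with 20% mitochondrial UMIs allowed, and genes that rose in germ-cell-like over somatic-like cells numbered 1 with equal weight for each cell. That weighting also put Trp63 at 2.40 at pachytene, and Bcl2 at 0.181 into early prophase and 0.0710 in germ-cell-like over somatic-like cells. The settings that keep globin-rich cells or leave out a cluster were chosen after seeing the data. Keeping globin-rich cells, 2 genes rose into early prophase and the early-prophase-like effector-to-guard ratio was 0.928. Against E4 alone, 1 gene rose and 2 fell at pachytene, and 5 of the wider lists fell. Without E1, 0 genes fell at pachytene and 2 rose into early prophase. Bak1 reversed, to 0.834, with P1 alone over early-prophase-like cells. For single genes, 310 of 350 recomputed ratios stayed within their counting interval, 39 moved out of it and 1 reversed. Of 30 shares thinned to 1000 UMIs, 10 stayed within theirs and 20 moved. Thinning to fewer UMIs lowers the chance that a cell holds one, so these shares do not measure how stable the values are. Apart from this and from the clusters or cells that a setting leaves out, the cause of the moves was not tested.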
